A study of Mus musculus with 48 samples.

Results

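The mitochondrially encoded RNAs are the 37 genes of the circular mitochondrial chromosome. They were taken as every identifier of the count table that GENCODE M21 names with a mouse symbol starting with mt-. All 37 were found among the 38293 genes of the table. They comprise 13 mRNAs, 2 rRNAs and 22 tRNAs. The plus strand holds 12 of the mRNAs, both rRNAs and 14 of the tRNAs, and the minus strand holds mt-Nd6 and 8 tRNAs.

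The study injected male C57/Bl6 mice with drugs acting on the gut peptide receptors for GLP-1 and CCK, and sequenced RNA from the dorsal vagal complex (DVC, in the hindbrain, where vagal afferents end) and from the mediobasal hypothalamus (MBH). RNA on ribosomes carrying phosphorylated ribosomal protein S6 was pulled down with an antibody against the sites 240/244 (IP), and total RNA of the same kind of cleared homogenate served as the input. The mice were 9 weeks old, wild type as far as the labels say, and fasted for 6 h before an intraperitoneal injection of 10 µL per g. In each region and RNA kind there were 3 libraries after AC3174 (1 µg/kg), 3 after AC170222 (2.5 µg/kg), 3 after both drugs (combination) and 3 after saline, which makes 48 libraries in 16 groups. The treatment field spells the second drug AC710222. Elsewhere the protocol names exenatide (1 µg/kg) and AC710222 (2.5 or 10 µg/kg), so the dose of the second drug is not certain. The sources used here give neither the doses within the combination nor the time to dissection nor the number of mice per sample. The labels do not say that the 3 libraries of a group came from separate animals, so p-values measure the spread between these libraries, which may be in part technical.

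Mitochondrial DNA is transcribed from both strands into long precursors, from which the tRNAs are cut out and the mRNAs and rRNAs released between them. The mRNAs are read by ribosomes inside the mitochondrion, built on the RNAs of mt-Rnr1 and mt-Rnr2, and encode core subunits of respiratory complexes I, III and IV and of the ATP synthase (complex V). All other subunits of these complexes, and all of complex II, come from nuclear genes whose mRNAs are read by cytosolic ribosomes. Ribosomal protein S6 belongs to the cytosolic ribosome and is not a part of the mitochondrial one.

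The mitochondrial genes lie end to end, and some share bases. Counts per gene depend on this, because the libraries keep no strand and reads from shared or antisense bases cannot be told apart. Among the mRNAs, mt-Atp8 and mt-Atp6 share 43 bases, mt-Nd4l and mt-Nd4 share 7, mt-Atp6 and mt-Co3 share 1, and mt-Nd5 and mt-Nd6 share 14 on opposite strands. The longest of these overlaps and the antisense one are shown in GRCm38 coordinates on the plus strand, all in capitals because every base belongs to both genes (sequence from the GENCODE M21 transcripts).
mt-Atp8 and mt-Atp6, chrM:7927-7969: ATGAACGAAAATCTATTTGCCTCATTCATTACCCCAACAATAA
mt-Nd5 and mt-Nd6, chrM:13552-13565: TTAATCTCGAGTAA

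The 3′ ends of the mRNAs also differ. A complete stop codon closed 10 of the 13 annotated mRNAs, with TAA in 8 and TAG in 2. The other 3, mt-Co3, mt-Nd4 and mt-Cytb, ended on a single T, which is completed to a stop codon by the poly(A) tail. The last bases of these 3 and of mt-Co1 and mt-Atp6 are shown for comparison, with the stop codon or the single T in capitals.
mt-Co3, chrM:9375-9390, plus strand: tattgatgaggatctT
mt-Nd4, chrM:11529-11544, plus strand: acaggcctgacaataT
mt-Cytb, chrM:15273-15288, plus strand: ctaaaattatatccaT
mt-Co1, chrM:6858-6872, plus strand: gtaaaagtaaaaTAA
mt-Atp6, chrM:8593-8607, plus strand: catgataatacaTAA
Per the labels the cDNA was made with a SMART-Seq v4 kit, a type of kit that primes on poly(A).

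Copies of mitochondrial sequence in the nuclear genome can take or share reads. GENCODE M21 held 11 other transcripts with at least 200 bases at 95% identity or more to 9 of the members, and 5 of these matched without a mismatch. Only 5 of the 11 were in the count table, with 12 to 611 counts each summed over the 48 libraries. One of them, Gm10222, is an exact copy of 294 of the 297 bases of mt-Nd4l. The other exact copies, of mt-Co2, mt-Atp6, mt-Co3 and part of mt-Nd4, were not in the table. The level of mt-Nd4l and those of the others are therefore uncertain where reads match both places.

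Total counts per library ranged from 21782798 to 191252522, and the deepest libraries were the DVC IP libraries. In 6 IP libraries fewer than 12000 genes had a count. In DVC this was AC3174 3, and in MBH these were AC3174 2 and 3, AC170222 2 and 3, and saline 3. They are called libraries with few genes below. The limit marks no clear gap, since AC170222 2 of the MBH IP had 11812 genes with a count and saline 3 of the DVC IP had 12652. Markers separated the labelled tissues: summed DVC markers were at a median of 277 CPM (counts scaled to a common library size with TMM factors) in DVC IP libraries and 402 CPM in DVC inputs, against 0 and 0.431 CPM in MBH IP libraries and inputs. Summed MBH markers had medians of 149 and 187 CPM in MBH IP libraries and inputs, against 4.72 and 5.44 CPM in DVC. No molecular identifiers were used, so intervals cover counting error only.

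The 13 mitochondrial mRNAs were scarce in every IP library. In DVC they made up 0.000887% of the library's counts in the lowest of the 12 IP libraries, 0.0203% at the median and 0.184% in the highest, against 0.440%, 0.847% and 3.32% in the 12 inputs. In MBH the IP libraries held 0.000280%, 0.0183% and 0.324%, against 0.124%, 0.431% and 1.67% in the inputs. In DVC the IP libraries and the inputs did not overlap, while in MBH the 2 highest IP libraries, AC170222 3 and saline 1 (0.228%), lay above the lowest input. The lowest share, in AC3174 2 of the MBH IP, rested on 207 counts (95% Wilson interval 0.000244% to 0.000321%), and the highest, in AC3174 1 of the DVC inputs, on 3160328 counts (3.320% to 3.327%).

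**Figure D1:**
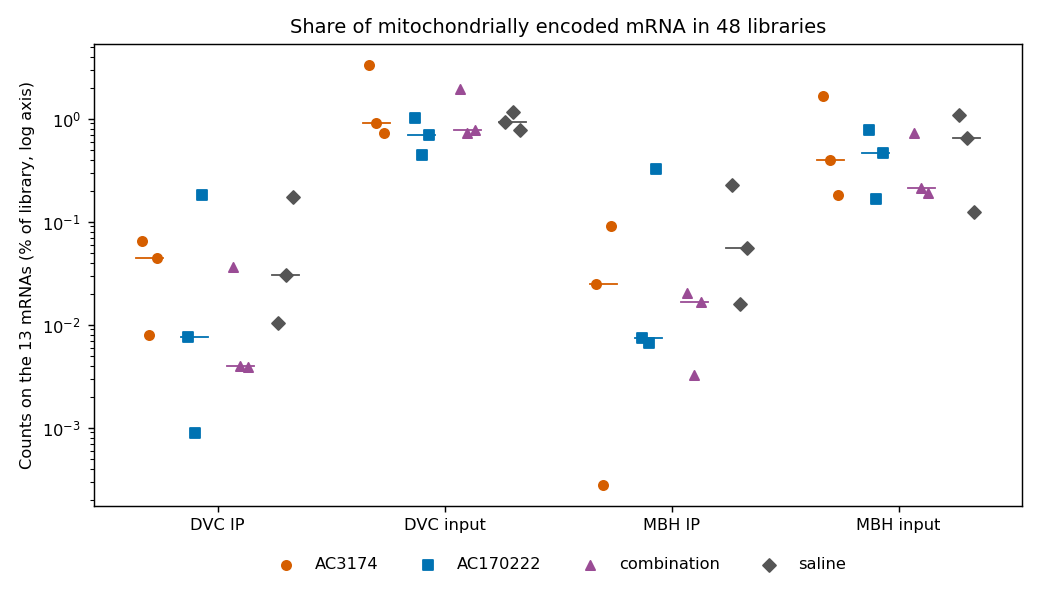
Share of each library's counts from the 13 mitochondrial mRNAs (percent, log axis) in DVC and MBH, for IP libraries and inputs, with 1 point per library, a line at the median of each treatment, and colours and marks for the treatments. The DVC IP libraries reach at most 0.184% and all DVC inputs lie at 0.440% or more, while in MBH 2 IP libraries rise above the lowest input.

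Set against the input of the same treatment and number, the summed mRNA level was lower in the IP in 12 of 12 samples of each region. The log2 difference ran from -8.70 to -1.80 with a median of -5.88 in DVC, and from -10.30 to -0.63 with a median of -4.82 in MBH. The titles number IP and input alike but do not say that they share a homogenate. Among the 6 libraries with few genes, the mRNA share was 0.0444% in AC3174 3 of DVC, and in MBH it was 0.0552% in saline 3, 0.000280% in AC3174 2, 0.0904% in AC3174 3, 0.00662% in AC170222 2 and 0.324% in AC170222 3. They thus held both the lowest and the highest of the MBH IP values.

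Subunits of complex I, the entry point of electrons from NADH, come from 7 of the mRNAs. In DVC, mt-Nd1 (chrM:2751-3707) had 0.725, 21.2 and 286 CPM in the lowest, median and highest IP library, against 446, 890 and 3547 CPM in the inputs. Likewise mt-Nd5 (chrM:11742-13565) had 0, 4.57 and 55.1 CPM in the IP, against 174, 265 and 1221 CPM in the inputs. The rarest, mt-Nd4l (chrM:9877-10173), had 0, 0 and 0.673 CPM in the IP, with 7 of 12 libraries at 0, against 0.815, 1.74 and 7.75 CPM in the inputs. For all 7 the highest IP library stayed below the lowest input.

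The other complex I mRNAs had the same order in DVC. For mt-Nd2 (chrM:3914-4951) the median was 12.9 CPM in the IP, against 364 CPM in the inputs, and for mt-Nd3 (chrM:9459-9806) it was 2.09 and 94.7 CPM. For mt-Nd4 (chrM:10167-11544) it was 12.6 and 551 CPM. For mt-Nd6 (chrM:13552-14070), the one mRNA of the minus strand, it was 4.51 and 89.4 CPM. The gap was narrow for mt-Nd4, whose highest IP library had 288 CPM and lowest input 306 CPM, and for mt-Nd6, with 33.7 and 36.9 CPM.

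The mRNA of complex III and those of complex IV, the oxidase that reduces oxygen, followed. In DVC mt-Cytb (chrM:14145-15288), the cytochrome b of complex III, had 0, 24.1 and 156 CPM in the lowest, median and highest IP library, against 411, 817 and 3388 CPM in the inputs. The catalytic subunit mt-Co1 (chrM:5328-6872) had 3.42, 29.8 and 361 CPM in the IP, against 703, 1180 and 5145 CPM in the inputs. It was counted in each of the 12 IP libraries of both regions. For mt-Co2 (chrM:7013-7696), which receives electrons from cytochrome c, the medians were 15.2 CPM in the IP, against 584 CPM in the inputs, and for mt-Co3 (chrM:8607-9390) they were 31.5 and 1502 CPM.

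The membrane subunits of the ATP synthase were mt-Atp6 (chrM:7927-8607), which had 0, 29.8 and 244 CPM in the DVC IP against 859, 1517 and 5961 CPM in the inputs, and mt-Atp8 (chrM:7766-7969), with medians of 2.56 CPM in the IP, against 155 CPM in the inputs. The rRNA of the small mitochondrial ribosomal subunit, mt-Rnr1 (chrM:70-1024), had 0.252, 6.37 and 71.9 CPM in the DVC IP, against 104, 170 and 635 CPM in the inputs. That of the large subunit, mt-Rnr2 (chrM:1094-2675), had 0.682, 26.7 and 252 CPM in the DVC IP, against 781, 1419 and 5835 CPM in the inputs. For all 13 mRNAs and both rRNAs the IP libraries and the inputs of DVC did not overlap. Over all genes tested in DVC, 0.493% had all IP libraries below all inputs.

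The edgeR quasi-likelihood test across all genes gave the same picture for the mRNAs and rRNAs in DVC. Of the 37 members 29 passed the filter on low counts, and all 29 fell in the IP (13 mRNAs, both rRNAs and 14 tRNAs), with log2 differences of -7.57 to -3.99 and Benjamini-Hochberg adjusted p of 0.000137 to 0.0411. In the fit of the DVC IP libraries alone 19 members passed, of which 4 were tRNAs. The other tRNAs passed only with the inputs, where they are high, so their direction is no support. Over all 18465 genes, 20.4% were called in either direction and 13.6% lower, and the median log2 difference was -0.37. Among the mRNAs mt-Nd3 had the lowest value (log2 -5.49 ± 1.16, adjusted p = 0.0031) and mt-Nd6 the highest (-4.30 ± 1.05, adjusted p = 0.00809). The median was -4.60 for the 7 complex I mRNAs, -4.82 for mt-Cytb, -4.80 for the 3 complex IV mRNAs and -5.26 for the 2 of complex V. For mt-Rnr2 it was -5.25 ± 0.75 (adjusted p = 0.000137) and for mt-Rnr1 -4.48 ± 0.73 (adjusted p = 0.000384). Values after ± are SE for log2 differences and SD elsewhere.

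Without AC3174 3, the DVC IP library with few genes, 30 members passed the filter and 29 were called lower, with a median log2 difference of -4.69 for the 13 mRNAs, against -4.67 with it. With the sample shared by IP and input as a replicate block 25 of 29 were called, the 4 lost were tRNAs, and the median of the 13 mRNAs was -6.66. In the 6 saline libraries alone, an alternative chosen after the data were seen, 0 members and 0 genes were called (2556 of 14828 genes had an unadjusted p under 0.05), and the median of the 13 mRNAs was -3.61.

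In MBH the same members were lower in the IP but spread more widely. Of the 23 members that passed the filter all 23 had a negative log2 difference, and 8 of them were called lower, where 0.292% of all 17461 genes were called lower and the median of all genes was -0.28. The 8 were mt-Rnr1 (-5.16 ± 1.03, adjusted p = 0.0287), mt-Rnr2 (-3.58 ± 0.74, adjusted p = 0.0315), mt-Nd2 (-4.56 ± 1.01, adjusted p = 0.0497), mt-Nd3 (-6.72 ± 1.25, adjusted p = 0.0196), mt-Nd4 (-4.29 ± 0.94, adjusted p = 0.0456) and the tRNA genes mt-Tm, mt-Tn and mt-Tc. In the fits of the MBH IP libraries alone mt-Ts1 was the only tRNA that passed the filter. The called tRNAs thus passed only with the inputs, and their direction is no support. The other 10 mRNAs had log2 differences of -4.14 (mt-Nd6) to -3.12 (mt-Nd5) and were not called.

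The values in MBH show the spread. For mt-Rnr1 the IP libraries had 0, 1.08 and 38.0 CPM at the lowest, median and highest, against 24.9, 70.8 and 314 CPM in the inputs. For mt-Rnr2 they had 3.85, 33.8 and 1123 CPM, against 331, 782 and 3234 CPM. In both cases 2 of the 12 IP libraries lay above the lowest input, and the same held for mt-Nd4, with 0, 11.9 and 161 CPM in the IP against 86.8, 310 and 1221 CPM in the inputs.

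For mt-Nd3 the MBH IP libraries had 0, 0.117 and 36.6 CPM, with 5 of 12 at 0, against 11.8, 57.5 and 193 CPM in the inputs. For mt-Nd2 they had 0, 4.41 and 61.1 CPM, against 57.0, 179 and 687 CPM. In each case 1 IP library lay above the lowest input. Of the called mRNAs and rRNAs, none had IP and input ranges that were fully apart in MBH.

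Among the members not called in MBH, mt-Co1 had 0.0286, 36.0 and 647 CPM in the IP, against 202, 653 and 2463 CPM in the inputs (log2 -3.37 ± 0.89, adjusted p = 0.0998). For mt-Cytb the values were 0, 20.5 and 354 CPM, against 136, 405 and 1590 CPM (log2 -3.22 ± 0.89, adjusted p = 0.118). For mt-Atp6 they were 0, 20.5 and 617 CPM, against 228, 751 and 2699 CPM (log2 -3.99 ± 1.06, adjusted p = 0.1). Each had 2 IP libraries above the lowest input.

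**Figure D2:**
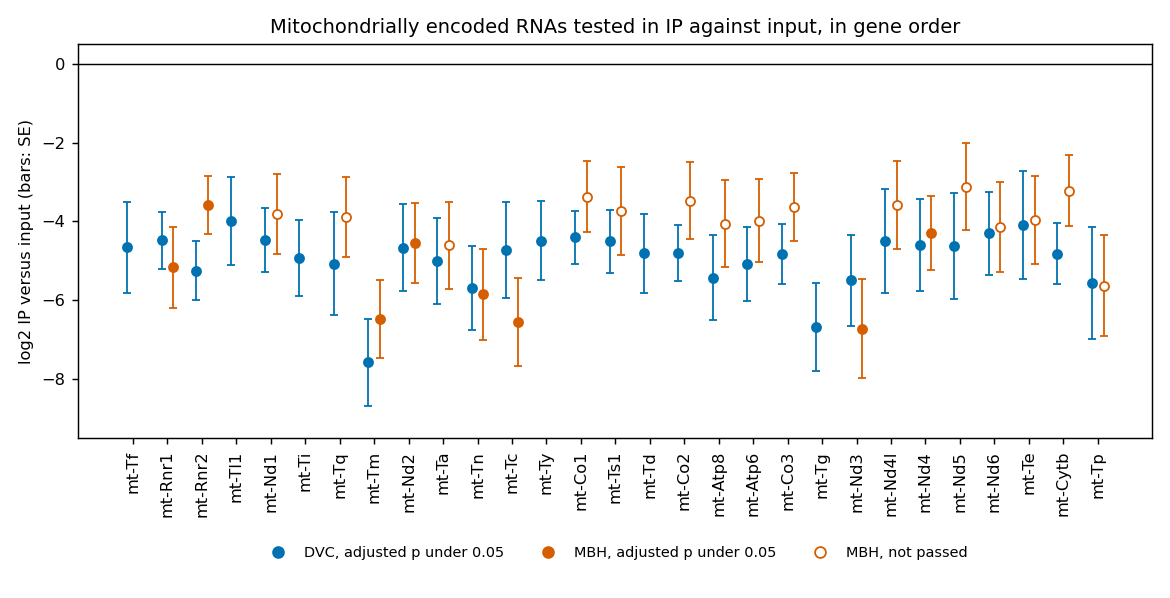
Log2 difference of IP over input (edgeR, with SE) for each member tested in DVC (29) and in MBH (23), in gene order along the chromosome, with filled points for members called at an adjusted p under 0.05. All points lie below 0, between -7.57 and -3.99 in DVC and between -6.72 and -3.12 in MBH.

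The difference between the regions in IP over input was tested by itself, over all 48 libraries. Of 27 members tested, 0 were called (lowest adjusted p = 0.539, edgeR quasi-likelihood test), while 4.39% of all 19416 genes were called in either direction, 2.33% higher and 2.06% lower. At an unadjusted p under 0.05 the count was 0 members, and DESeq2 called 0. For the 13 mRNAs the difference DVC minus MBH ran from -1.53 to 1.32 with SE of 1.03 to 1.63, so a difference between the regions of that size could not be resolved. In a bulk sample fewer cells of a type and less RNA per cell cannot be told apart.

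The calls in MBH depended on single libraries. Leaving out the IP and input of 1 sample at a time gave 0 to 10 calls, with 0 in 7 of the 12 cases (saline 1, saline 2, AC3174 2, AC170222 2 and each of the 3 combination samples) and 10 without AC3174 1. Without the 5 MBH IP libraries with few genes 8 members were again called, of which 5 were among the first 8: mt-Rnr1, mt-Rnr2, mt-Nd2, mt-Nd3 and mt-Nd4 stayed, mt-Co1, mt-Co3 and mt-Cytb came in and the tRNAs dropped out. The median of the 13 mRNAs was then -4.67, against -3.82 with all libraries. With the replicate block 0 members were called in MBH, and the median of the 13 mRNAs was -5.30. DESeq2 called 23 members lower there.

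Nuclear genes for the same complexes went the other way in DVC. Of 75 nuclear-encoded subunits tested 69 were called higher in the IP and 0 lower, with a median log2 difference of 0.79, where 6.8% of all genes were called higher. By complex, 33 of 36 rose for complex I, 4 of 4 for complex II, 8 of 9 for complex III, 10 of 11 for complex IV and 14 of 15 for complex V. The list was drawn up with earlier results of these data known, so its direction is no independent evidence.

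Single nuclear subunits show the size of these differences. Ndufs1, the largest subunit of complex I, was at 701 ± 154 CPM in the DVC IP and 301 ± 42.4 CPM in the inputs (SD, n = 12 each; log2 1.13 ± 0.12, adjusted p = 1.33e-05). Cox7b, a small subunit of complex IV, was at 1189 ± 343 against 411 ± 71.9 CPM (log2 1.44 ± 0.15, adjusted p = 1.10e-05). Atp5mpl, a small subunit of the ATP synthase, was at 871 ± 354 against 268 ± 55.9 CPM (log2 1.58 ± 0.18, adjusted p = 1.71e-05).

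The other named subunits had log2 differences of 0.59 to 1.47. They were Ndufc1 of complex I (log2 1.14), Sdhd and Sdhb of complex II, the succinate dehydrogenase (0.64 and 0.59), Uqcr10 and Uqcr11 of complex III (1.34 and 1.27), Cox7c of complex IV (1.33) and Atp5e of the ATP synthase (1.47). In MBH 0 of the 75 were called in either direction, where 0.452% of all 17461 genes were, so that count says little about the subunits. Their median there was -0.20, with values of -0.55 to 0.89. Over all genes the test of the difference called 2.33% higher in DVC than in MBH on TMM scaling. Of the 75 it called 56 higher, with a median of 1.08. That count was 33 with RLE size factors and 0 with upper quartile scaling, which move the median of all genes for this difference to -0.33 and -0.37, against 0.03 on TMM. For the mitochondrial members 0 were called under each scaling.

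**Figure D3:**
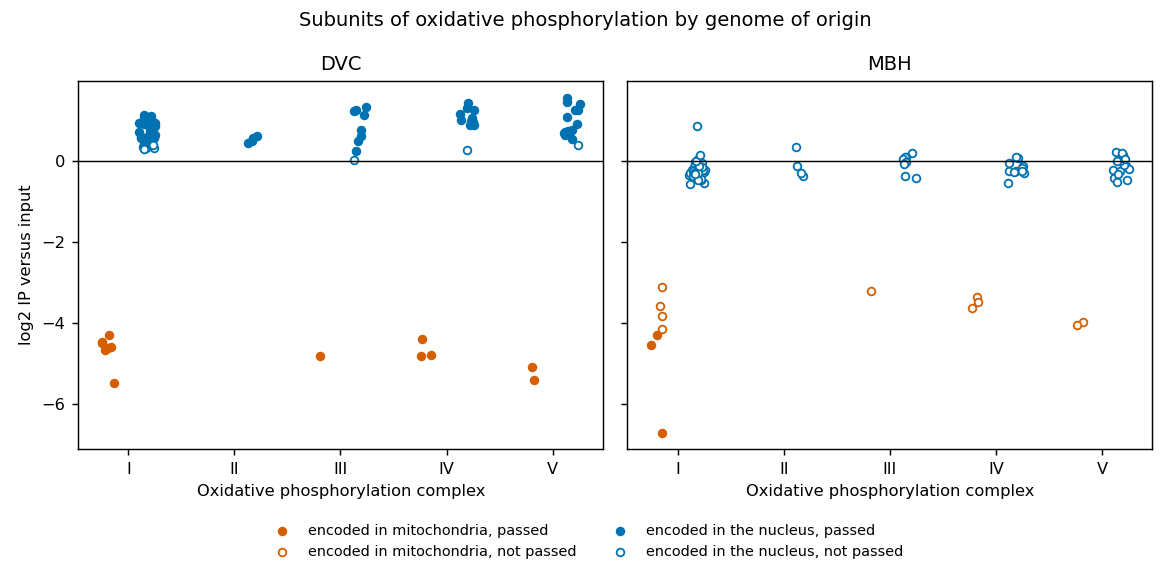
Log2 difference of IP over input (edgeR) for each subunit gene of the 5 oxidative phosphorylation complexes, split by complex, region and genome of origin, with filled points for genes called at an adjusted p under 0.05. Nuclear subunits lie between 0.03 and 1.58 in DVC and between -0.55 and 0.89 in MBH, and all mitochondrial ones lie below -3 in both regions.

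Nuclear genes that maintain and express mitochondrial DNA were called less often than the subunits. Of 52 such genes 8 were called higher and 1 lower in the DVC IP, and 0 were called in MBH. Of all genes tested 6.8% were called higher and 13.6% lower in DVC, and 0.452% were called in either direction in MBH. The median log2 difference of the 52 was 0.31 in DVC, against -0.37 for all genes, and 0.13 in MBH, against -0.28. The largest differences in DVC were those of Mtif2, an initiation factor of mitochondrial translation (1.19 ± 0.32, adjusted p = 0.0136), Mterf3, a factor that binds mitochondrial DNA (1.03 ± 0.28, adjusted p = 0.0147), Slirp, an RNA-binding protein that stabilises mitochondrial mRNAs (1.00 ± 0.20, adjusted p = 0.00181), the elongation factor Gfm1 (0.99 ± 0.16) and the RNA-processing factor Ptcd2 (0.79 ± 0.15). Mterf1a, a transcription termination factor, was the one called lower (-2.89 ± 0.90, adjusted p = 0.0311), with 3.84 ± 6.14 CPM in the IP against 3.76 ± 1.70 CPM in the inputs, so its mean CPM and its fitted value differ in sign, and in saline samples alone the fitted value was 0.94.

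Some other RNAs and cell type markers were also lower in the DVC IP and others were higher, and their part in the result was not tested. Of all genes tested in DVC 13.6% were called lower and 6.8% higher. Of 6 RNAs retained in the nucleus 4 were called lower, with summed levels whose median was 704 CPM in the IP, against 4178 CPM in the inputs. Malat1, the most abundant of them, was at 555 ± 472 against 3568 ± 838 CPM (log2 -2.87 ± 0.43, adjusted p = 0.00019), and Miat was at -1.91 ± 0.63. In MBH Malat1 was called lower too (-2.28 ± 0.45, adjusted p = 0.0268).

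Markers of oligodendrocytes were called lower in the DVC IP for 4 of 8 genes, where 13.6% of all genes were. Their summed medians were 2340 CPM in the IP, against 7403 CPM in the inputs. Microglial markers were called lower for 5 of 8 (14.3 against 70.1 CPM) and endothelial and mural markers for 6 of 8 (1.77 against 20.5 CPM). In single DVC IP libraries 0 to 6 of the 8 microglial and 0 to 4 of the 8 endothelial and mural markers had a count. Of the endothelial and mural markers 2 were at 0 in all of these libraries. Such markers can pass the filter through the inputs alone, where they are high, so their direction is no support. In saline samples alone the fitted value of the mural marker Pdgfrb was 0.36. Neuronal markers were called higher for 5 and lower for 1 of 10 (29351 against 12687 CPM), and astrocyte markers higher for 2 of 8, where 6.8% of all genes were called higher. The red blood cell markers Hbb-bs and Hbb-bt were called higher (241 against 93.6 CPM summed over that list). Of the choroid plexus and meningeal markers Col1a1 was called lower (0.616 ± 2.14 against 2.06 ± 2.17 CPM), with the same limit. The summed medians of that list were 186 against 118 CPM. In MBH no marker of these cell types was called, where 0.452% of all genes were called in either direction.

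The proportions of the mitochondrial mRNAs within a library were steadier across the inputs than across the IP libraries. In the DVC inputs mt-Atp6 made up 19.0 ± 0.988% of the summed mRNA counts, mt-Co3 18.5 ± 0.687% and mt-Co1 15.1 ± 0.769% (SD, n = 12), and in the MBH inputs they made up 18.4 ± 1.20%, 18.9 ± 1.12% and 16.4 ± 1.48%. Over the 13 mRNAs the coefficient of variation of these proportions across libraries had a median of 6.23% in DVC inputs and 15.0% in MBH inputs. Its highest values there were 24.2% and 25.3%. In the IP libraries the median was 80.9% in DVC and 83.4% in MBH. The counts behind them were far fewer, and the effect of that on the spread was not tested.

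Single IP libraries were uneven. In the DVC IP 7 to 13 of the 13 mRNAs had a count, and in the MBH IP 1 to 13, while every input had all 13. In AC3174 2 of the MBH IP, one of the libraries with few genes, mt-Co1 alone made up 100% of the 207 mRNA counts. The ratio of rRNA to mRNA counts was 0.149 to 0.299 in DVC inputs and 0.114 to 0.326 in MBH inputs, against 0.0197 to 0.721 in the DVC IP and 0.0943 to 5.40 in the MBH IP, where 5.40 belongs to AC3174 2.

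**Figure D4:**
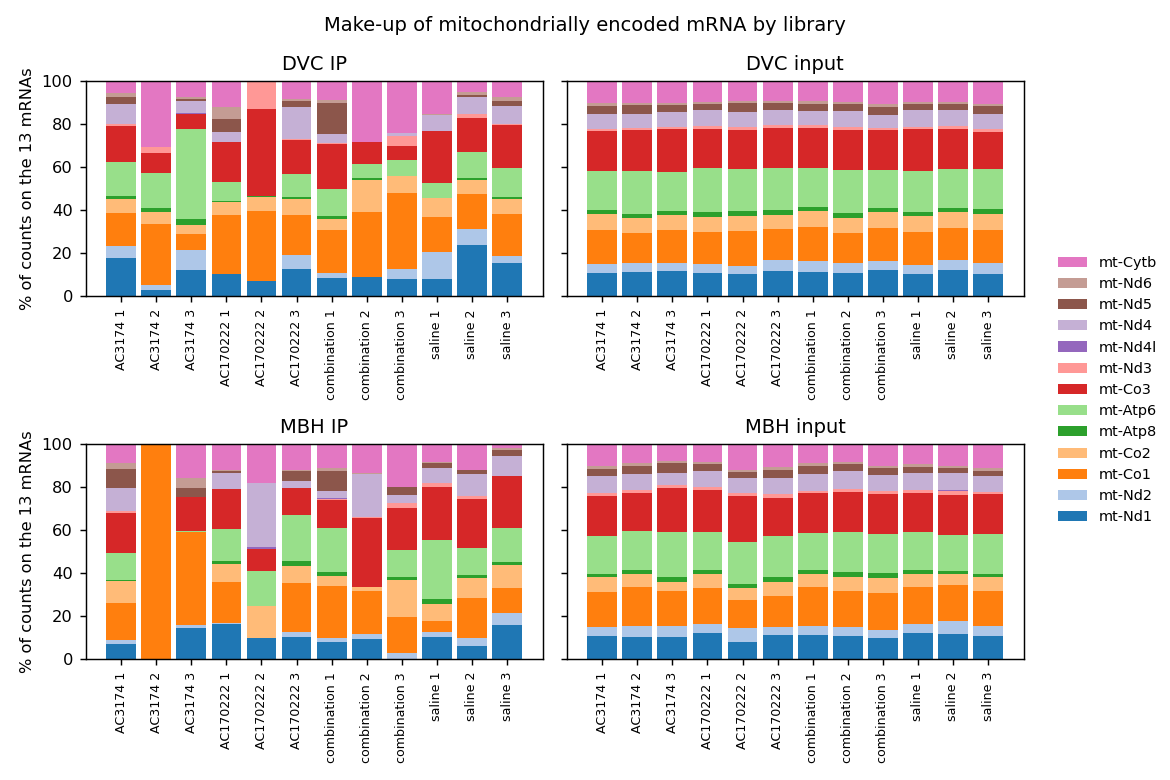
Share of each of the 13 mRNAs in the summed mitochondrial mRNA counts of each library (percent, stacked to 100), for IP libraries and inputs of DVC and MBH. Bands are more alike between inputs than between IP libraries, and 1 MBH IP library holds a single mRNA.

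Because gene lengths differ, levels were compared per kilobase between the 13 mRNAs and the 2 rRNAs, without the tRNAs. In the inputs of both regions the order began with mt-Atp6, at 2984 ± 2064 CPM per kb in DVC and 1384 ± 1107 in MBH, followed by mt-Co3 at 2546 ± 1828 and 1253 ± 1016. The first lay above the second in 12 of 12 libraries of each region, by a mean log2 difference of 0.24 ± 0.10 in DVC and 0.16 ± 0.08 in MBH. The next of the DVC inputs were mt-Nd1 (1258 ± 893), mt-Rnr2 (1210 ± 905), mt-Co2 (1133 ± 833), mt-Atp8 (1067 ± 791), mt-Co1 (1065 ± 810) and mt-Cytb (941 ± 704), and these neighbours did not keep their order in every library.

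The complex I mRNAs other than mt-Nd1, and mt-Rnr1, came lower. In DVC inputs mt-Cytb lay above mt-Nd4 (553 ± 394 CPM per kb) in 12 of 12 libraries, by a mean log2 difference of 0.76 ± 0.14. Below it came mt-Nd2 (477 ± 354), mt-Nd3 (359 ± 264), mt-Rnr1 (252 ± 164), mt-Nd6 (224 ± 186) and mt-Nd5 (201 ± 160), again with neighbours that changed places. The lowest of these 15 RNAs was mt-Nd4l at 7.45 ± 6.34 CPM per kb, below mt-Nd5 in 12 of 12 libraries by a mean log2 difference of 4.80 ± 0.38. In MBH inputs mt-Nd4l likewise had the lowest mean of the 15, at 3.64 ± 3.09 CPM per kb, and lay below mt-Nd5, the next above it, in 12 of 12 libraries. It overlaps mt-Nd4 and has the exact nuclear copy described above, and the part of either in its low count was not tested.

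**Figure D5:**
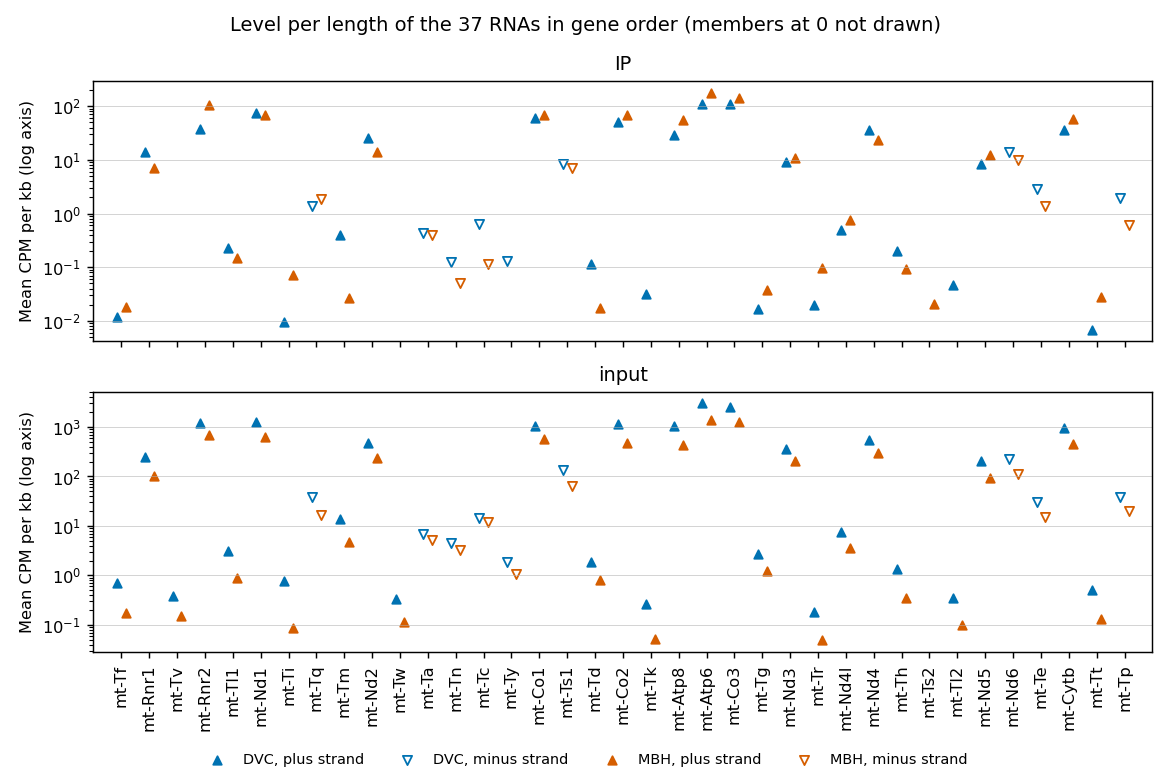
Mean level of each of the 37 RNAs in CPM per kb (log axis, 12 libraries per mean) in gene order, in IP libraries (upper panel) and inputs (lower panel) of DVC and MBH, with filled marks for the plus strand and open ones for the minus strand. Among the mRNAs the DVC input means lie between 2984 for mt-Atp6 and 7.45 for mt-Nd4l, and most tRNAs lie far below the other mRNAs and the rRNAs.

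The tRNAs, which carry amino acids to the mitochondrial ribosome, were barely counted. Of the 22 tRNAs 8 had a count in all 12 DVC inputs and 7 in all 12 MBH inputs, against 1 and 0 in the IP libraries. Their summed counts over 12 libraries were 2104 in the DVC IP and 17804 in the DVC inputs, and 530 in the MBH IP and 7373 in the MBH inputs. The 8 tRNAs of the minus strand gave 91.4% to 95.5% of these counts in the 4 sets of libraries. They lie opposite the plus-strand transcript, and with no strand kept their reads cannot be told apart from reads of that transcript.

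The most counted tRNA was mt-Ts1, a serine tRNA of the minus strand that overlaps the last 3 bases of mt-Co1. It gave 50.3% of all tRNA counts in the DVC IP, 45.4% in the DVC inputs, 60.9% in the MBH IP and 44.9% in the MBH inputs. Its sequence is shown with the 3 overlapping bases in capitals, and with it those of mt-Tq (glutamine) and mt-Tp (proline), also of the minus strand, where capitals mark the overlap of mt-Tq with mt-Ti.
mt-Ts1, chrM:6870-6938, minus strand: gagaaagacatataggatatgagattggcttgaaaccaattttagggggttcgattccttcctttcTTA
mt-Tq, chrM:3772-3842, minus strand: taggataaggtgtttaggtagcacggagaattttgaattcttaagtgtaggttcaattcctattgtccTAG
mt-Tp, chrM:15356-15422, minus strand: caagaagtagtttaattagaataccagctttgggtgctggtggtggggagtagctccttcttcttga

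In DVC mt-Ts1 had 0.0242, 0.256 and 3.71 CPM in the lowest, median and highest IP library, against 2.93, 5.79 and 29.2 CPM in the inputs (log2 -4.51 ± 0.81, adjusted p = 0.0009). For mt-Tm (methionine) the DVC IP had 0, 0 and 0.317 CPM, against 0.167, 0.779 and 2.63 CPM in the inputs (log2 -7.57 ± 1.10, adjusted p = 0.000346). The ranges of mt-Tm overlapped in DVC. The other 12 tRNAs called lower there were mt-Tf, mt-Tl1, mt-Ti, mt-Tq, mt-Ta, mt-Tn, mt-Tc, mt-Ty, mt-Td, mt-Tg, mt-Te and mt-Tp, with fitted log2 differences of -6.68 (mt-Tg) to -3.99 (mt-Tl1). With many libraries at 0 these values rest on the fit's prior count. Except for mt-Tq, mt-Tc, mt-Ts1 and mt-Te, the tRNAs called in DVC passed the filter only with the inputs.

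In MBH mt-Tm had 0, 0 and 0.0221 CPM in the IP, with 11 of 12 libraries at 0, against 0.0476, 0.194 and 0.849 CPM in the inputs (log2 of the fit -6.48 ± 0.99, adjusted p = 0.0164). For mt-Tc (cysteine) the values were 0, 0 and 0.0440 CPM, against 0.0869, 0.737 and 1.77 CPM (-6.56 ± 1.12, adjusted p = 0.0164), and for mt-Tn (asparagine) 0, 0 and 0.0439 CPM, against 0, 0.208 and 0.588 CPM (-5.85 ± 1.15, adjusted p = 0.0456). Only mt-Tm and mt-Tc had IP and input ranges that did not overlap in MBH, where 0.0916% of all genes had all IP libraries below all inputs. Both passed the filter only with the inputs. The tRNAs mt-Tq, mt-Ta, mt-Ts1, mt-Te and mt-Tp were tested in MBH and not called, with log2 differences of -5.63 (mt-Tp) to -3.73 (mt-Ts1).

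The tRNAs that passed the filter in neither region were mt-Tv, mt-Tw, mt-Tk, mt-Tr, mt-Th, mt-Ts2, mt-Tl2 and mt-Tt. The rarest of all members, mt-Ts2, had 1 count in the 48 libraries, and mt-Tv and mt-Tw had none in the 24 IP libraries.

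The inputs of the 2 regions were compared next. The summed mRNA level was 10812 ± 7855 CPM in DVC inputs and 5275 ± 4329 CPM in MBH inputs (SD, n = 12 each), with wide overlap. All 27 members tested had a positive log2 difference of DVC over MBH (0.31 to 1.93, median 1.05), while 54.8% of all genes had one and the median of all genes was 0.10. The mRNAs and rRNAs follow each other across the inputs (median r with mt-Cytb 0.983 in DVC and 0.969 in MBH), so these signs are not independent results. Of the 27, mt-Atp8 (1.26 ± 0.40, adjusted p = 0.0289) and mt-Rnr1 (1.36 ± 0.43, adjusted p = 0.0294) were called higher, where 11.7% of all 18576 genes were called higher (edgeR quasi-likelihood test). Leaving out 1 library at a time gave 0 to 12 calls, with 0 without AC3174 1, AC170222 1 or combination 1 of DVC or without AC3174 2, combination 2 or combination 3 of MBH, and 12 without AC3174 1 of MBH. DESeq2 called 11, the replicate block across regions 14 and the code column pair as a term 15, so the number called depends on the fit.

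In the IP libraries the summed mRNA level was 505 ± 676 CPM in DVC and 603 ± 940 CPM in MBH. Of 19 members tested 0 were called, with 5.89% of all genes called in either direction (3.11% higher and 2.79% lower). The log2 differences of the members ran from -0.88 to 2.12. Of the 19, 12 were above 0, as were 53.8% of all genes. Without the IP libraries with few genes 22 of 23 were above 0, and 0 were called. The mRNAs and rRNAs follow each other across IP libraries (median r with mt-Cytb 0.778 in DVC and 0.737 in MBH). Such counts of signs are therefore not independent results. At an unadjusted p under 0.05 edgeR counted 0 of the 19 and DESeq2 called 0. Nuclear subunits of the complexes were called higher in the DVC IP than in the MBH IP for 59 of 75 on TMM scaling and for 2 with upper quartile scaling. In the DVC inputs 10 of the 75 were called higher and 2 lower than in the MBH inputs, where 11.7% of all genes were called higher and 10.2% lower. Region and library preparation cannot be told apart.

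The drugs were compared with saline within each region and RNA kind, with 3 libraries on each side. The 3 drug groups of a set share the same saline libraries, so their differences are not independent of each other. In the 12 comparisons edgeR called 0 members and 0 genes of any kind (0.0% in each), and at an unadjusted p under 0.05 it counted 127 to 1427 of 14766 to 17477 genes and 2 of the 258 member tests. DESeq2 called 0 members as well, and 159 to 1209 genes per comparison.

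In the DVC inputs the mitochondrial mRNA share was 3.32%, 0.918% and 0.721% after AC3174, 1.02%, 0.440% and 0.701% after AC170222, 1.95%, 0.727% and 0.777% after the combination, and 0.932%, 1.17% and 0.769% after saline. One library, AC3174 1, stood above all others, and each drug group overlapped the saline group. All 13 mRNAs had positive log2 differences with AC3174 (0.71 to 1.11), as did 50% of all genes, and with the combination (0.05 to 0.49), as did 49.5%. With AC170222 they had negative ones (-0.65 to -0.17), as did 51.1%. The SE were 0.55 to 0.95. The mRNAs and rRNAs follow each other across these libraries (median r with mt-Cytb 0.983), so the shared sign is not 13 independent results. Without combination 1 the combination gave -0.17 for mt-Nd5, -0.25 for mt-Atp8 and -0.27 for mt-Nd1.

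The members named for AC3174 were highest in 1 library. Of these, mt-Nd5 had 1221, 335 and 229 CPM with the drug, against 236, 335 and 265 CPM with saline (log2 1.11 ± 0.56, unadjusted p = 0.0714 and adjusted p = 0.993 by edgeR). The others, mt-Cytb (0.91 ± 0.56) and mt-Atp8 (0.95 ± 0.58), were also highest in AC3174 1, and without that library they were at -0.11 and -0.10. With AC170222 the members with the smallest p were mt-Rnr1 (-0.60 ± 0.64), mt-Nd6 (-0.65 ± 0.67) and mt-Ty (-2.51 ± 1.51), and with the combination mt-Nd1 (0.35 ± 0.57), mt-Atp8 (0.39 ± 0.58) and mt-Nd5 (0.41 ± 0.55). With AC170222 mt-Ta and mt-Ty had all 3 drug libraries below all 3 saline libraries, and 5.06% of all genes did.

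In the DVC IP the mRNA share was 0.0655%, 0.00789% and 0.0444% after AC3174, 0.00761%, 0.000887% and 0.184% after AC170222, 0.0365%, 0.00394% and 0.00389% after the combination, and 0.0104%, 0.0301% and 0.174% after saline. The AC170222 libraries alone held both the lowest and the highest of the 12 values, and no drug group was apart from saline. The members with the smallest p were mt-Ts1, mt-Co1 and mt-Rnr1 for AC3174 (log2 -2.51 ± 1.80, -1.44 ± 1.48 and -1.88 ± 1.84), mt-Rnr1, mt-Rnr2 and mt-Ts1 for AC170222 (-1.65 ± 1.83, -1.38 ± 1.61 and -1.32 ± 1.73), and mt-Ts1, mt-Nd1 and mt-Co2 for the combination (-3.18 ± 1.85, -3.28 ± 1.96 and -2.50 ± 1.69). Without saline 3, the highest saline library, the values named for AC3174 and AC170222 were above 0. After the combination mt-Nd1 had 32.4, 4.22 and 3.51 CPM, against 10.1, 85.4 and 286 CPM after saline. Of the members mt-Nd2 alone had all combination libraries below all saline libraries, where 4.62% of all genes did.

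In the MBH inputs the mRNA share was 1.67%, 0.400% and 0.181% after AC3174, 0.775%, 0.165% and 0.462% after AC170222, 0.721%, 0.214% and 0.189% after the combination, and 1.09%, 0.654% and 0.124% after saline. The saline libraries spanned most of the range of the drug libraries. The members with the smallest p had log2 differences of 0.57 ± 0.87 (mt-Rnr2), -1.12 ± 1.50 (mt-Tc) and -0.94 ± 1.43 (mt-Ta) for AC3174, -1.50 ± 1.35 (mt-Tm), -0.74 ± 0.97 (mt-Nd3) and 1.39 ± 1.85 (mt-Ty) for AC170222, and -1.12 ± 0.90 (mt-Nd2), -1.14 ± 0.98 (mt-Nd3) and -1.39 ± 1.35 (mt-Tm) for the combination. No member had 3 drug libraries apart from the 3 saline libraries.

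In the MBH IP the mRNA share was 0.0250%, 0.000280% and 0.0904% after AC3174, 0.00737%, 0.00662% and 0.324% after AC170222, 0.0201%, 0.00324% and 0.0166% after the combination, and 0.228%, 0.0157% and 0.0552% after saline. After the combination mt-Rnr2 had 37.5, 3.85 and 15.0 CPM, against 1123, 30.1 and 149 CPM after saline (log2 -4.47 ± 1.82, unadjusted p = 0.0309, adjusted p = 1 by edgeR). One combination library lay above the lowest saline library. The next for the combination were mt-Co3 (26.2, 11.1 and 32.9 CPM against 556, 37.2 and 124 CPM, log2 -3.31 ± 2.17) and mt-Nd1 (-4.02 ± 2.73).

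After AC3174 mt-Rnr1 had 0.497, 0 and 0.135 CPM in the MBH IP, against 29.3, 6.12 and 1.17 CPM after saline (log2 -5.83 ± 3.25, unadjusted p = 0.1 by edgeR), and the groups did not overlap. The others named for AC3174 were mt-Rnr2 (-3.03 ± 1.70) and mt-Nd4l (-4.55 ± 2.70). After AC170222 mt-Nd3 had 0, 0.0286 and 0 CPM, against 36.6, 1.88 and 0 CPM after saline (unadjusted p = 0.0419, adjusted p = 1 by edgeR). Its drug libraries held 1 count in all, so no fold is given. The others were mt-Rnr2 (-1.59 ± 1.61) and mt-Co1 (1.67 ± 2.05), which had 14.1, 0.0286 and 647 CPM after AC170222, against 116, 29.7 and 61.5 CPM after saline. Without AC170222 3, a library with few genes, mt-Co1 was at -3.26.

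The drug groups lay below the saline group without overlap in the MBH IP for mt-Rnr1 after AC3174, where 5.15% of all genes did, and for mt-Nd2, mt-Nd4 and mt-Co3 after the combination, where 3.09% did. No member lay above in that way in any of the 12 comparisons. Of the 9 MBH IP libraries of the drug groups 4 are among those with few genes.

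Across the 12 IP libraries of a region mt-Cytb was set against other RNAs of the same libraries, in a family of 7 relations with permutation p and Benjamini-Hochberg adjustment. Its level with that of Malat1 gave r = 0.618 (adjusted p = 0.0451) and rho = 0.769 (adjusted p = 0.0169) in DVC, and r = 0.851 without the 2 libraries farthest from the median of the x axis. With scaling without the 37 members its r (0.618) and unadjusted permutation p (0.0258) were the same. The adjusted p was 0.0516 there, in the family of 6 without the relation added later. The pass at 0.0451 thus depends on that relation, which was added after the data were seen. In the family of 6 the adjusted p was also 0.0753 without the library with few genes and 0.113 with a pseudocount of 0.1, so it did not pass there. In MBH it gave r = 0.584 (adjusted p = 0.0644) and rho = 0.552 (adjusted p = 0.0937), with r = 0.334 without 2 libraries. With mt-Rnr2 it gave r = 0.722 (adjusted p = 0.0161) and rho = 0.832 (adjusted p = 0.00833) in DVC, and r = 0.740 (adjusted p = 0.0161) and rho = 0.692 (adjusted p = 0.0358) in MBH, which dropped to r = 0.450 without AC170222 3 and saline 1.

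Between the IP and the input of the same number mt-Cytb gave r = 0.324 (adjusted p = 0.328) and rho = 0.161 (adjusted p = 0.618) in DVC, and r = 0.201 (adjusted p = 0.532) and rho = 0.210 (adjusted p = 0.60) in MBH, and r was 0.392 and 0.196 without 2 libraries. Between the DVC input and the MBH input of the same treatment and number, a relation added after the data were seen, it gave r = 0.701 (adjusted p = 0.0161) and rho = 0.671 (adjusted p = 0.0358), and r = 0.555 without AC3174 1 and saline 3. The labels do not say that the regions of a number come from the same mice.

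Among the members the level of mt-Cytb across the 12 libraries of a set followed that of the other mRNAs and rRNAs closely in the inputs (median r = 0.983 in DVC and 0.969 in MBH over 14 members) and less so in the IP libraries (0.778 and 0.737). Of 9673 other genes averaging 10 CPM or more, the 8 whose log2 level followed mt-Cytb most closely over the 48 libraries were BC051077 (r = 0.863), Lrrc17 (0.855), Malat1 (0.852), ENSMUSG00000093760 (0.814), Fth1 (0.799), Nrsn1 (0.795), Apoe (0.794) and Tspan3 (0.778). These 48 points fall into IP and input libraries, so the values describe mostly that difference and carry no p.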

How the data were processed

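RNA was sequenced in 48 libraries of 16 groups. The authors deposited 1 table of raw read counts per gene, and per the submitters' processing notes they used TopHat2 2.0.11, HTSeq 0.6.1p1 and GRCm38 (annotation, parameters and strand setting not given in the sources used here). Values are whole numbers, and 0 columns could not be mapped to a sample. Total counts were 21782798 to 191252522 per library, and no 2 replicates agreed within sampling noise (lowest chi-square per degree of freedom 130.8 over 48 pairs).

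Symbols, positions and sequences were those of GENCODE M21 (GRCm38), where 36345 of 38293 identifiers had an entry. Counts of all genes were tested with edgeR 4.0.16 in R 4.3.3 (TMM, filterByExpr by group, quasi-likelihood F test, 2-sided), with Benjamini-Hochberg adjustment over all genes of a comparison and calls at an adjusted p under 0.05. IP and input were fitted over the 24 libraries of a region as the mean over 4 treatments, drugs over 12 libraries of a region and RNA kind, and regions over the 24 libraries of an RNA kind. SE is the log2 difference divided by the root of F. CPM uses TMM factors over all 48 libraries. Correlations used log2(CPM + 1) with 100000 resamples (scipy 1.17.1). The test was checked on simulated counts with a single fixed spread and large changes in well-counted genes. That check does not cover members with few counts or many libraries at 0.

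All mRNAs, rRNAs and filtered-in tRNAs are named. For drugs the 3 members with the smallest p are named, for nuclear lists the 2 called genes of largest absolute log2 in each direction, and for likeness the 8 closest genes. The members and lists were chosen with earlier results of these data known. Exceptions are single values discussed for a library, chosen after they were seen.

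Alternatives were a replicate block, RLE and upper quartile scaling, scaling without the 37 members, no filter, DESeq2 1.42.0, leaving out each sample, leaving out libraries with under 12000 genes, the pair of code columns in the library names as a term, all 24 libraries of a region in 1 fit, and a pseudocount of 0.1. The saline-only fits and 1 correlation were added after the data were seen. Numbers did not pair samples by the check used: in deviations from group means IP and input of a number correlated over 0.1 in 0 of 12 cases in each region.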

Additional observations from a re-analysis of the deposited data

Results flagged for a closer look

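The difference between the regions in IP over input, DVC minus MBH, was itself called for named nuclear genes, as an interaction over all 48 libraries (edgeR quasi-likelihood test on TMM scaling, adjusted p under 0.05). It was called for 4.39% of all 19416 genes in either direction and for 0 of 27 mitochondrially encoded RNAs. For the 13 mRNAs among these it ran from -1.53 to 1.32 with SE of 1.03 to 1.63, so it could not be resolved at that size. Among the subunits it was 1.46 for Ndufa1 and 1.43 for Ndufs4 (complex I), 0.98 for Sdhd and 0.88 for Sdhc (complex II), 1.33 for Uqcrh and 1.29 for Uqcr10 (complex III), 1.61 for Cox7a2 and 1.57 for Ndufa4 (complex IV), and 1.56 for Atp5mpl and 1.46 for Atp5k (ATP synthase), all on the log2 scale. Cox7a2 averaged 927 ± 260 CPM in the DVC IP and 360 ± 73.4 CPM in the DVC inputs, and 307 ± 89.2 CPM in the MBH IP and 374 ± 146 CPM in the MBH inputs (SD, n = 12 each). With upper quartile scaling 0 of the 75 subunits were called, and Sdhd and Sdhc were at -0.011 and -0.19.

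Slirp, which stabilises mitochondrial mRNAs, had a difference of 1.29 (adjusted p = 0.0145). It averaged 117 ± 44.9 CPM in the DVC IP and 54.7 ± 11.3 CPM in the DVC inputs, and 75.6 ± 57.9 CPM in the MBH IP and 81.7 ± 21.5 CPM in the MBH inputs. Among cell type markers the difference was 1.26 for Nefl and 1.20 for Nefm (neurons), -1.39 for Mbp and -1.03 for Cnp (oligodendrocytes), and, as fitted values with many libraries at 0, -10.66 for Csf1r and -7.57 for P2ry12 (microglia). The part of these markers in the differences of the subunits was not tested.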

How the results depend on the processing

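Under the alternatives 12251 values were recomputed, and a change of sign was looked for only in single genes and correlations, where 29 changed sign. Counts of calls and medians also belong to the 12251, so 29 is no rate over them. The median of the 13 mRNAs for the difference between regions, outside the 29, ran from -2.17 to 0.079 leaving out 1 sample, against -0.97. For IP versus input in DVC 29 members were called, and leaving out 1 sample gave 24 to 30. The replicate block (treatment and number) gave 25 there, and saline samples alone, with fewer libraries, gave 0. In MBH 8 members were called, against 0 with the replicate block, 4 with upper quartile scaling, 5 without a filter, 23 with DESeq2, 5 with the code column pair as a term, 0 in saline samples alone and 0 to 10 leaving out 1 sample. For DVC versus MBH in input 2 were called, against 14 with the replicate block across regions, 4 with RLE size factors, 11 with DESeq2, 15 with the code column pair and 0 to 12 leaving out 1 library. The cause was not tested. The difference between regions, the IP comparison of regions and the 12 drug comparisons called 0 members under every alternative run, leaving out a library and the number as a block included.

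Over all genes, IP versus input in MBH called 28 higher and 51 lower, against 40 and 44 with RLE, 14 and 15 with upper quartile, 16 and 28 without a filter, 14 and 34 with the code column pair, 1 and 2 with the block, 411 and 1550 with DESeq2, and 245 and 118 without libraries under 12000 genes. In DVC it called 1256 and 2520, against 561 and 840 with the block and 1602 and 4573 with DESeq2. The difference between regions called 453 and 399, against 153 and 491 with RLE, 58 and 481 with upper quartile, 109 and 91 with the block, 1115 and 2241 with DESeq2, and 1005 and 660 without libraries under 12000 genes. DVC versus MBH in IP called 535 and 480, against 283 and 556 with upper quartile, 244 and 128 with the block and 1575 and 1832 with DESeq2. DVC versus MBH in input called 2171 and 1896, against 3540 and 2573 with DESeq2.

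The r of mt-Cytb with Malat1 in DVC IP fell past the threshold at 0.536 with pseudocount 0.1, 0.615 without libraries under 12000 genes and 0.618 with scaling without the 37 members, all in the family of 6 relations without the one added later. With pseudocount 0.1 so did r with mt-Rnr2, at 0.593 in DVC and 0.636 in MBH.

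Signs turned for members that were not called. In DVC versus MBH input mt-Tc was at -0.022 without DVC AC3174 1 and -0.093 without combination 1 (-0.093 to 0.70 leaving out 1 library). In the drug comparisons leaving out 1 library gave, for AC3174 in DVC input, -0.10 to 1.32 for mt-Atp8 and -0.11 to 1.25 for mt-Cytb (lowest without AC3174 1), and for the combination -0.17 to 0.65 for mt-Nd5, -0.25 to 0.64 for mt-Atp8 and -0.27 to 0.62 for mt-Nd1 (lowest without combination 1). In DVC IP, highest without saline 3, AC3174 gave -3.04 to 0.23 for mt-Ts1, -2.58 to 0.17 for mt-Rnr1 and -2.33 to 0.51 for mt-Co1, and AC170222 gave -4.20 to 0.39 for mt-Rnr1, -3.39 to 0.61 for mt-Rnr2 and -3.46 to 1.42 for mt-Ts1. In MBH input AC3174 gave -0.73 to 1.57 for mt-Rnr2 (lowest without AC3174 1) and, with the code column pair, 0.73 for mt-Tc and 0.94 for mt-Ta, and the combination 1.28 for mt-Nd2, 1.08 for mt-Nd3 and 1.12 for mt-Tm. In MBH IP AC170222 gave -5.62 to 0.74 for mt-Rnr2 (highest without saline 1) and -3.26 to 2.29 for mt-Co1 (lowest without AC170222 3), and for mt-Co1 also -1.60 with the replicate block, -2.36 without libraries under 12000 genes and -1.87 with the code column pair. Of nuclear genes Mterf1a (0.94), Pdgfrb (0.36) and Col1a1 (0.21) turned in saline samples alone, and Sdhd (-0.011) and Sdhc (-0.19) with upper quartile scaling.

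The replicate numbers did not pair samples by the check used, which asks for every pair over 0.1. Such a rule cannot exclude that the members follow the number in part. In the MBH inputs number 1 had the highest mRNA share in each treatment (0.721% to 1.67%). In the MBH IP number 2 had the lowest in each (0.000280% to 0.0157%). In DVC no number was highest or lowest in every treatment. What the losses under the block mean was not tested. Same-numbered libraries of different treatments correlated over 0.1 in 3 of 18 pairs among the DVC IP libraries and 3 among the DVC inputs, and in 14 and 2 among those of MBH. Libraries of the same treatment and number in both regions did so in 6 of 12 IP pairs and 4 of 12 input pairs. Few mitochondrial counts limit the IP values, with 207 mRNA counts in the smallest sum. With plain library totals the mean summed mRNA level was 474 CPM in the DVC IP, against 505 with TMM factors, and 11207 against 10812 CPM in the DVC inputs. In MBH it was 661 against 603 CPM in the IP and 5535 against 5275 CPM in the inputs. These shifts are under 1 SD, but with SD of 676 and 940 CPM in the IP of DVC and MBH that limit could hardly be passed.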
